A study of Mus musculus with 12 samples.

Results

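The genes described here are 40 proliferation genes of S phase and mitosis, listed by name, out of 24452 gene symbols in the deposited files. The list was written with earlier results of these data known, and the study had named Cit among its most changed genes. They comprise 9 genes of replication licensing and the replicative helicase, 4 of DNA synthesis and nucleotide supply, 6 cyclin and cyclin-dependent kinase genes, 8 mitotic kinase, checkpoint and exit genes, 7 genes of chromosomes, kinetochores and the spindle, and 6 of cytokinesis. All 40 were listed, and all 40 passed the low-count filter with which 14739 symbols were tested. Stranded total RNA-Seq was performed on the somatosensory cortex of male C57BL/6 mice on postnatal day 7, with 3 libraries in each of 4 groups. WT saline mice and p53 KO saline mice received saline injections, and WT ethanol mice and p53 KO ethanol mice received intraperitoneal ethanol in the same schedule, with tissue taken 8 hours after the last injection. The p53 KO line carries a germline disruption of Trp53 in every cell, so the groups do not separate neurons from the other cells of the cortex. KO and WT mice were offspring of heterozygote matings.

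Proliferating cells license replication origins with the Mcm2 to Mcm7 helicase in G1, copy DNA in S phase, and divide under the cyclin B and Cdk1 kinase. Transcription of S phase genes is driven by E2F factors, and that of G2 and mitosis genes by complexes that bind the cell cycle homology region (CHR) and CCAAT boxes near the start site. p53 is known to lower many genes of both classes through p21 and the DREAM repressor complex. In the first postnatal week of the mouse, most cortical neurons have left the cell cycle, and dividing cells of the cortex are mainly glial precursors, astrocytes, microglia and vascular cells. In whole tissue, fewer dividing cells and less RNA per dividing cell cannot be told apart.

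The targeted gene was examined first. Levels are given as CPM, counts scaled to a common library size after TMM normalization. Trp53 ranged from 3.67 to 26.2 CPM in the 6 WT libraries and from 11.1 to 28.7 CPM in the 6 KO libraries, so its summed level did not separate the genotypes. The listed transcript NM_001127233 made up 7.01% to 23.1% of Trp53 counts in WT mice, as against 65.7% to 70.6% in KO saline mice. In the KO ethanol libraries it took 7.01%, 70.6% and 48.3%. Replicate 1 of that group had only 14 Trp53 counts and the same share as 3 WT libraries, so its genotype label could not be checked. Its total was 719735 counts, against 1953154 in WT saline replicate 1 and at least 5060577 in the other 10. These shallow libraries are the 2 whose names open with L, while the other 10 open with P. The 40 proliferation genes together held 199 counts in KO ethanol replicate 1, where 7 of them (Ccnb2, Bub1, Kif23, Mcm2, Mcm3, Anln and Gins2) were at 0, and 560 counts in WT saline replicate 1, where Bub1 was at 0. A count of 0 there allows a level of up to 5.01 CPM in KO ethanol replicate 1 and 1.54 CPM in WT saline replicate 1 (3 counts, counting error only). The other 10 libraries held between 2718 and 11818 counts of these genes and none was at 0.

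WT saline replicate 2 also stood apart. It had the lowest TMM factor (0.564). Its 3 erythroid markers (Hba-a1, Hbb-bs and Alas2) summed to 954 CPM and its 4 markers of meningeal fibroblasts (Col1a1, Col1a2, Dcn and Lum) to 535 CPM, against 5.14 to 225 CPM in the other 11 libraries. The erythroid sum was 201 and 346 CPM in the other WT saline libraries, between 37.4 and 104 CPM in WT ethanol, between 28.9 and 69.7 CPM in KO saline, and 557, 24.8 and 22.7 CPM in KO ethanol. All 3 erythroid markers were detected in every library, as were all 6 markers of cortical excitatory neurons. All markers of interneurons, astrocytes and microglia were detected in every library as well, so detection alone does not check the labelled tissue. The summed level of the excitatory neuron markers was 355 CPM in WT ethanol replicate 1 and 670 to 1321 CPM in the other 11 libraries.

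Per kilobase of transcript, Pcna, the sliding clamp of DNA polymerases, had the highest mean level of the 40 in every group. Its mean level was 185 CPM per kilobase in WT saline and between 54.5 and 74.3 in the other groups. The WT saline mean was raised by replicate 2, since the 3 libraries were at 55.5, 465 and 192 CPM. Pcna was followed in WT saline by the helicase subunits Mcm7 (12.2 CPM per kilobase) and Mcm6 (10.8), the ribonucleotide reductase subunit Rrm1 (9.86) and Cdk1 (9.64). Cdk1 too was highest in replicate 2 (52.2 CPM, against 7.71 and 22.7 CPM). At the other end in WT saline were Cit, a kinase of the cleavage furrow (0.154 CPM per kilobase), the kinetochore motor Cenpe (0.254) and the kinetochore protein Cenpf (0.321). In KO saline Cit was at 2.92 CPM per kilobase and the DNA topoisomerase Top2a at 6.38, against 1.83 for Top2a in WT saline. The 4 highest levels were those of replication genes in both of these groups.

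The promoters of some of the genes are shown as examples, because S phase and mitotic genes are known to differ in these elements. RefSeq windows (build GRCm38.p6, 250 bases before to 50 after a start) were found for 33 of the 40 genes, as 36 windows. The CHR letters TTTGAA on either strand were in 18 of these 36 windows and in 17.9% of all 32851 windows. The E2F letters TTTCCCGC, TTTGGCGC, TTTGCCGC or TTTCGCGC, also on either strand, were in 7 of the 36 and 2.26% of all windows, and CCAAT in 28 of the 36 and 37.4% of all. Each stretch below is 60 bases, written 5′ to 3′ on the strand of the gene and ending before its start, with 1 motif in capitals (TTTGAA or its complement TTCAAA, E2F letters or their complement, and ATTGG as the complement of CCAAT).
Top2a, chr11:99024190-99024249, minus strand, CHR letters: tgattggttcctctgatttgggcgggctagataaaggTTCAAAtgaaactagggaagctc
Kif11, chr19:37376322-37376381, plus strand, CHR letters: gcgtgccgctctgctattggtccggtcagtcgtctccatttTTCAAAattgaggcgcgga
Mki67, chr7:135716445-135716504, minus strand, CHR letters: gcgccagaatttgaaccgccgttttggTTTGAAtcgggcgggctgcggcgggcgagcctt
Cdk1, chr10:69352913-69352972, minus strand, CHR letters: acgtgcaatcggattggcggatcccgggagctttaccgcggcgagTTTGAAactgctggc
Mcm6, chr1:128359719-128359778, minus strand, E2F letters: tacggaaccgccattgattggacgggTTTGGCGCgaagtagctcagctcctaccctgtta
Pcna, chr2:132253236-132253295, minus strand, CCAAT letters: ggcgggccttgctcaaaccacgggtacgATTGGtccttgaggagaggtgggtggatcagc
Cit, chr5:115845596-115845655, plus strand, none of these letters: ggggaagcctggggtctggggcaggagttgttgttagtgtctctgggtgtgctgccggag
The CHR letters in capitals begin 15 bases before the start in Cdk1, 19 in Kif11, 23 in Top2a and 98 in Mki67. Cdk1, Top2a and Mki67 each have them at one further position in the window. The E2F letters of Mcm6 begin 47 bases before its start. The Cdk1 window also holds E2F letters, further upstream. The Cenpe window, which is not shown, holds CCAAT and neither CHR nor E2F letters. No motif of the 3 kinds was in the Cit window, which says only that these letters are not in it.

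The ethanol comparison in WT mice asked whether ethanol changed these genes in the presence of p53. It showed higher Cit and higher levels of several long mitotic genes after ethanol, and lower Pcna, Cdk1 and Tyms, the thymidylate synthase that supplies dTTP. Some markers of other cells also differed in this comparison. At an unadjusted p under 0.05, 3 of 4 striatal neuron markers passed (median log2 fold change 2.54), as did 3 of 3 erythroid markers (-2.86). So did 2 of 4 interneuron markers (0.40), 2 of 5 microglia markers (-0.18) and 1 of 4 endothelial markers (0.86). Passing too were 1 of 3 choroid plexus markers (2.28) and 1 of 8 markers of ventricular wall progenitors and neuroblasts (0.75). None passed in the other marker lists, and 18.3% of all symbols passed. The part of these cells in the values of the 40 genes was not tested. Cit (transcript NM_007708, mm10 chr5:115845656-116006342) was at 0.514, 1.84 and 0.817 CPM in WT saline and at 31.6, 13.4 and 14.5 CPM in WT ethanol. These values rest on 1, 10 and 11 counts in WT saline and on 558, 76 and 157 counts in WT ethanol, and the groups did not overlap. Cit rose by a log2 fold change of 4.15 (SE 0.58, edgeR quasi-likelihood adjusted p = 0.0303), which is 17.8-fold. The adjusted p was under 0.05 in 5 of 12 fits with a library left out and in 5 of 9 other alternatives, and was at most 0.202 in all of these. It had the smallest p of all 14739 symbols in this comparison.

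Cenpe, which carries chromosomes to the spindle equator, was at 2.06, 3.12 and 0.743 CPM in WT saline and at 7.36, 7.73 and 5.74 CPM in WT ethanol. The lowest WT ethanol library was above the highest WT saline library (log2 fold change 1.88, SE 0.59, edgeR adjusted p = 0.195). Kif11, the motor that separates spindle poles, was at 4.63, 4.96 and 3.71 CPM in WT saline and at 11.2, 9.31 and 9.64 CPM in WT ethanol (log2 fold change 1.19, SE 0.48, edgeR adjusted p = 0.228). These groups did not overlap either. Pcna was at 55.5, 465 and 192 CPM in WT saline and at 61.5, 101 and 114 CPM in WT ethanol (log2 fold change -1.37, SE 0.57, edgeR adjusted p = 0.238). Cdk1 was at 7.71, 52.2 and 22.7 CPM and at 10.2, 14.4 and 10.0 CPM in the same groups (log2 fold change -1.28, SE 0.55, edgeR adjusted p = 0.246). Tyms was at 4.63, 22.8 and 11.8 CPM and at 5.95, 5.80 and 6.67 CPM (log2 fold change -1.12, SE 0.50, edgeR adjusted p = 0.253). For each of these 3 genes WT saline replicate 2 was the highest library and replicate 1 was below every WT ethanol library, so the groups overlapped. Without WT saline replicate 2, which had the highest erythroid and fibroblast sums, none of the 3 passed an unadjusted p of 0.05. The part of those other cells in the result was not tested.

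At an unadjusted p under 0.05, 6 of the 40 genes (15.0%) passed, against 18.3% of all symbols. Of these, 3 were higher and 3 lower in WT ethanol, against 9.99% and 8.36% of all symbols. Cit alone passed at an adjusted p under 0.05 (2.50% of the 40, against 0.0746% of all symbols). At an adjusted p under 0.30, the level the study used, the same 6 passed (15.0%, against 22.5% of all symbols). Groups did not overlap in 6 of the 40, all higher in WT ethanol (Anln, Cenpe, Cenpf, Cit, Kif11 and Top2a), against 19.5% of all symbols. Only the share at an adjusted p under 0.05, which rests on Cit alone, was above the background, and the other total shares were below it. The list was written with earlier results known, and the study had reported Cit, so that share is no independent result. The median log2 fold change of the 40 was -0.22, against 0.06 for all symbols, and 16 of the 40 lay above 0, against 52.7% of all symbols. The proliferation marker Mki67 did not pass, at 11.8, 8.45 and 1.63 CPM in WT saline and 23.8, 17.4 and 10.9 CPM in WT ethanol (log2 fold change 1.34, SE 0.68). Top2a did not pass, with a log2 fold change of 1.00 (SE 0.53), although its WT saline libraries (5.94 to 12.9 CPM) lay below its WT ethanol libraries (13.5 to 22.4 CPM). The other genes followed in each comparison had log2 fold changes of -0.30 for Ccna2 (cyclin A2), -1.10 for Ccnb1 (cyclin B1), -0.04 for Ccne1 (cyclin E1), -0.85 for the mitotic kinase Plk1, -0.75 for the chromosomal passenger Birc5, -0.67 for the origin licensing factor Cdc6, -0.16 for Mcm2, -0.79 for Mcm5 and -0.20 for the ribonucleotide reductase subunit Rrm2, and none of these passed.

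**Figure D1:**
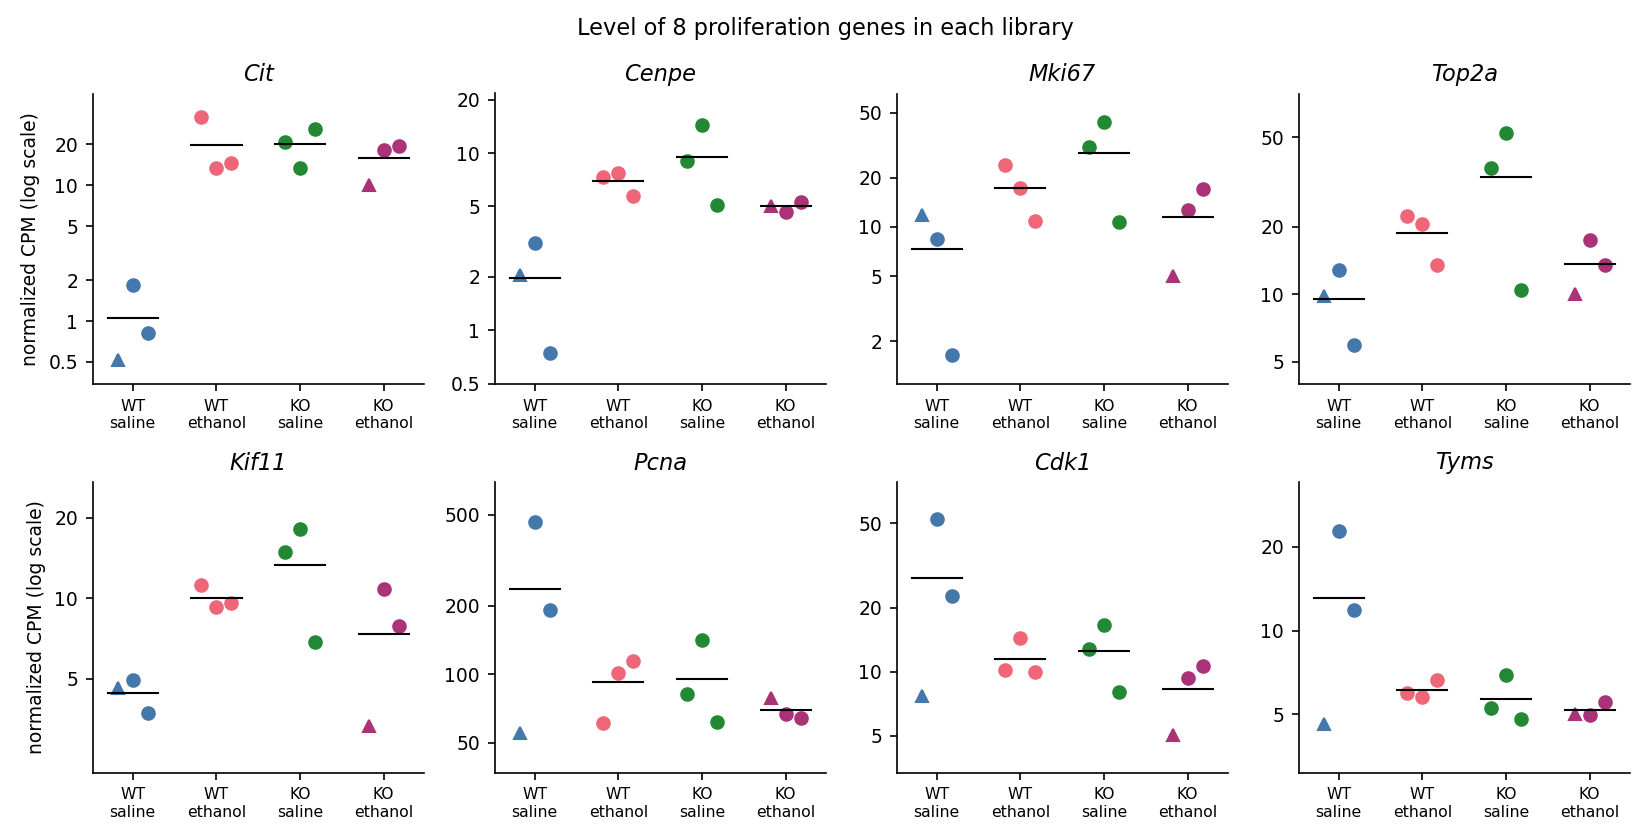
Normalized CPM on a log axis of 8 proliferation genes in the 12 libraries. Each point is 1 library (triangles, the 2 libraries named with L; circles, the 10 named with P), and the bar is the group mean of 3. Cit lies between 0.514 and 1.84 CPM in WT saline and between 10.0 and 31.6 CPM in the other groups, whereas Pcna, Cdk1 and Tyms are highest in WT saline replicate 2.

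The genotype comparison in saline-treated mice asked which of these genes differed at baseline without p53. Cit and 6 genes of chromosomes, kinetochores and the spindle were higher in KO saline, and Pcna and Tyms were lower. Both comparisons use the same WT saline libraries, so they are not independent, and the values of each are given side by side. Cit was at 20.8, 13.3 and 26.1 CPM in KO saline, on 237, 227 and 354 counts. It rose against WT saline by a log2 fold change of 4.16 (SE 0.58, edgeR adjusted p = 0.0297), a difference of 17.9-fold. The adjusted p was under 0.05 in 4 of 12 fits with a library left out and in 5 of 9 other alternatives, and at most 0.137. In this comparison 3 of 3 erythroid markers (median log2 fold change -3.19) and 3 of 4 fibroblast markers (-2.80) had an unadjusted p under 0.05. So did 2 of 5 microglia (-0.35), 1 of 4 endothelial (0.69), 1 of 5 oligodendrocyte precursor (0.65) and 1 of 6 excitatory neuron markers (0.02). The share of all symbols was 19.6%. None of the choroid plexus (2.22) or ventricular wall markers (0.50) passed, nor any in the remaining lists.

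Genes of chromosomes, kinetochores and the spindle formed the largest group with calls. Cenpe was at 9.04, 14.5 and 5.09 CPM in KO saline (log2 fold change 2.34, SE 0.59, edgeR adjusted p = 0.160). Kif11 was at 14.9, 18.2 and 6.86 CPM (log2 fold change 1.60, SE 0.48, edgeR adjusted p = 0.176), and Tpx2, which activates the Aurora A kinase on the spindle, at 13.7, 16.9 and 6.49 CPM against 4.11 to 5.42 CPM in WT saline (log2 fold change 1.39, SE 0.46, edgeR adjusted p = 0.177). In none of these 3 genes did the groups overlap. Mki67 was at 30.6, 43.6 and 10.7 CPM in KO saline (log2 fold change 2.04, SE 0.69, edgeR adjusted p = 0.177). Top2a was at 36.6, 52.4 and 10.5 CPM (log2 fold change 1.81, SE 0.53, edgeR adjusted p = 0.176), and Cenpf at 13.6, 16.7 and 4.06 CPM (log2 fold change 1.74, SE 0.63, edgeR adjusted p = 0.185). In all 6 of these genes KO saline replicate 3 was the lowest of its group, and for Mki67, Top2a and Cenpf it fell within the WT saline range.

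Pcna was at 82.1, 142 and 62.0 CPM in KO saline (log2 fold change -1.32, SE 0.57, edgeR adjusted p = 0.232), and Tyms at 5.26, 6.91 and 4.79 CPM (log2 fold change -1.23, SE 0.50, edgeR adjusted p = 0.206). Both overlapped the spread of WT saline. At an unadjusted p under 0.05, 9 of the 40 genes (22.5%) passed, against 19.6% of all symbols. The 7 higher genes compare with 9.14% of all symbols and the 2 lower genes with 10.5%. Cit alone passed at an adjusted p under 0.05 in edgeR (2.50%, against 0.0543%), a share that again rests on a gene the study had named. DESeq2 added Cenpe, Kif11 and Top2a, and its share of all symbols was not counted. At an adjusted p under 0.30, 12 of the 40 passed, against 25.8% of all symbols. These were 8 higher genes (12.4% of all symbols), with Kif23, a motor of the central spindle, added at a log2 fold change of 1.40 (SE 0.65), and 4 lower genes (13.4% of all symbols), with Cdk1 added at -1.15 (SE 0.55) and the helicase factor Gins2 at -1.24 (SE 0.62). Groups did not overlap in 6 of the 40 (Cenpe, Cit, Kif11, Kif23 and Tpx2, higher, and the cyclin gene Ccnb2, lower), against 22.9% of all symbols. The counts in both directions together were close to the background. The median log2 fold change of the 40 was -0.12, against 0.04 for all symbols, and 17 of the 40 lay above 0, against 52.0% of all symbols. Of the other genes followed, the log2 fold changes were -0.07 for Ccna2, -0.44 for Ccnb1, -0.18 for Ccne1, -0.27 for Plk1, -0.65 for Birc5, -0.03 for Cdc6, -0.54 for Mcm2, -0.54 for Mcm5 and 0.03 for Rrm2, and did not pass.

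The response to ethanol in p53 KO mice showed little that passed. Top2a alone had an unadjusted p under 0.05 (edgeR adjusted p = 0.999), which is 2.50% of the 40 genes against 3.15% of all symbols. It was at 10.0, 17.4 and 13.4 CPM in KO ethanol and 36.6, 52.4 and 10.5 CPM in KO saline, so the groups overlapped, and its log2 fold change was -1.23 (SE 0.53). No gene of the 40, and no symbol at all, passed at an adjusted p under 0.30 in edgeR (0.0% of symbols at this level and at 0.05). DESeq2 gave 2 of the 40 at an unadjusted p under 0.05, Top2a and Ube2c (share of all symbols not counted), and none at an adjusted p under 0.30. Cit was at 10.0, 18.2 and 19.5 CPM in KO ethanol (log2 fold change -0.27, SE 0.48, edgeR adjusted p = 0.999), where replicate 1 rests on 6 counts. Mki67 was at 5.01, 12.6 and 16.9 CPM (log2 fold change -1.18, SE 0.66) and Cenpf at 1.67, 5.61 and 5.07 CPM (log2 fold change -1.29, SE 0.62). The values of Pcna were 78.6, 66.9 and 64.3 CPM (log2 fold change -0.45, SE 0.57). Of the 40 genes, 9 had a log2 fold change above 0, against 50.7% of all symbols, with a median of -0.39 against 0.01. Groups did not overlap in Aurkb and Birc5, both higher in KO ethanol (5.00% of the 40, against 10.8% of all symbols). In KO ethanol replicate 1, Aurkb rests on 3 counts and Birc5 on 4. The other genes followed were at -0.49 for Cdk1, -0.47 for Ccna2, -0.94 for Ccnb1, 0.55 for Ccne1, 0.34 for Plk1, 0.53 for Birc5, 0.31 for Cdc6, -0.11 for Mcm2, -0.34 for Mcm5 and -0.53 for Rrm2. The largest value above 0 among the 40 was that of Ube2c, the ubiquitin-conjugating enzyme of mitotic exit, at 1.20 (SE 0.64) without passing, with 23.4 CPM in replicate 1 and 4.58 and 5.01 CPM in the other KO ethanol libraries.

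After ethanol, p53 KO and WT mice differed in none of the 40 genes at an unadjusted p under 0.05 in edgeR (0%, against 3.24% of all symbols). DESeq2 gave 1, Ube2c (share of all symbols not counted). Neither the 40 genes nor any symbol passed at an adjusted p under 0.30. The median log2 fold change of the 40 was -0.25, against -0.03 for all symbols, and 13 lay above 0, against 47.2% of all symbols. Groups did not overlap in 8 of the 40 (Birc5, Cdc6 and Ube2c, higher in KO ethanol, and Ccne2, Cenpe, Nusap1, Prc1 and Tyms, lower), against 12.7% of all symbols. In KO ethanol replicate 1, Ccne2 and Nusap1 rest on 1 count, Cdc6 and Prc1 on 2, and Cenpe and Tyms on 3. Birc5 rests there on 4 counts and Ube2c on 14. The log2 fold change was -0.26 for Cit (SE 0.48), -0.48 for Mki67 (SE 0.65), -0.41 for Top2a (SE 0.52), -0.41 for Pcna (SE 0.57) and -0.36 for Cdk1 (SE 0.57). It was -0.24 for Ccna2, -0.27 for Ccnb1, 0.41 for Ccne1, 0.92 for Plk1, 0.63 for Birc5, 0.95 for Cdc6, -0.49 for Mcm2, -0.09 for Mcm5 and -0.31 for Rrm2. Missing the threshold does not show that the genotypes were equal in these genes.

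**Figure D2:**
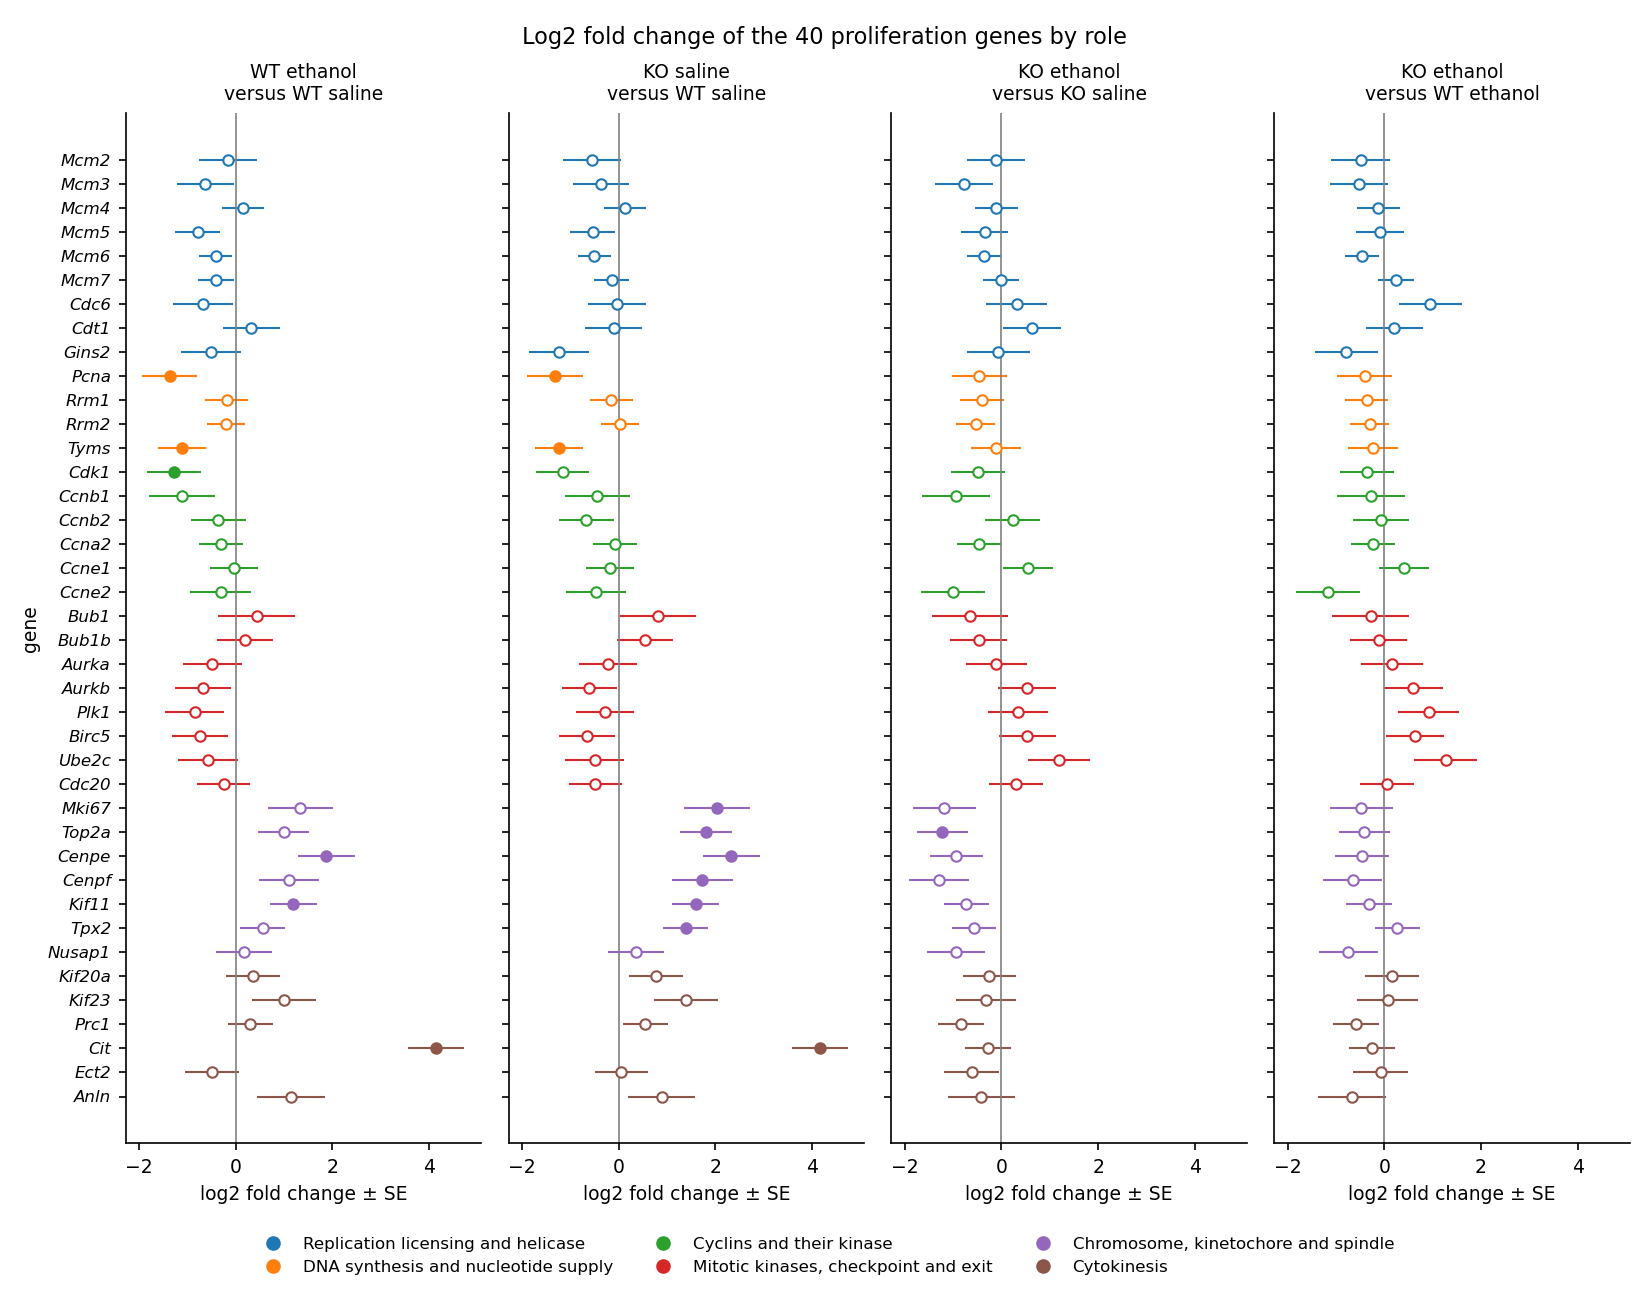
Log2 fold change with its standard error of the 40 proliferation genes in 4 comparisons, coloured by role. Filled points had an unadjusted p under 0.05. All 7 genes of chromosomes, kinetochores and the spindle lie above 0 in the first and second panels and below 0 in the third, and Cit stands apart at 4.15 and 4.16 in the first and second.

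The test of the difference between the ethanol responses of the genotypes (the Genotype x Treatment interaction) addressed whether p53 changed the response. At an unadjusted p under 0.05, 6 of the 40 genes (15.0%) passed, all with a lower response in KO mice, against 15.2% of all symbols. The same 6 passed at an adjusted p under 0.30 (15.0%, against 11.1% of all symbols), and none passed at 0.05 in edgeR, where no symbol did. DESeq2 gave Cit and Cenpe at 0.05 (share of all symbols not counted). Of the 40, 19 lay above 0, against 45.8% of all symbols. The interaction was -4.42 (log2, SE 0.74, edgeR adjusted p = 0.140) for Cit, -2.81 (SE 0.81) for Cenpe, -2.52 (SE 0.94) for Mki67, -2.39 (SE 0.88) for Cenpf, -2.22 (SE 0.74) for Top2a and -1.92 (SE 0.67) for Kif11. For Cit, the mean of the WT saline group was 1.06 CPM (SD 0.693, n = 3), whereas WT ethanol had 19.8 CPM (SD 10.2), KO saline 20.1 CPM (SD 6.44) and KO ethanol 15.9 CPM (SD 5.14). For the other 5, the log2 fold change after ethanol was above 0 in WT mice and below 0 in KO mice. Each of these values uses the WT saline libraries again.

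By role, the genes of chromosomes, kinetochores and the spindle lay above 0 in both comparisons with WT saline (7 of 7 in each, median log2 fold change 1.11 for WT ethanol and 1.74 for KO saline) and below 0 in KO ethanol against KO saline (7 of 7, median -0.94). Of these 7, 2 passed at an adjusted p under 0.30 in WT ethanol, 6 in KO saline and none in KO ethanol, against 22.5%, 25.8% and 0.0% of all symbols. The 2 of 7 in WT ethanol is close to that background, and no symbol passed in KO ethanol. All 7 but Nusap1 have transcripts of 4 kb or longer, and the shares of all symbols are not matched for length. Roles were written with earlier results known, so the 6 of 7 in KO saline is a description and no test of the role. Cytokinesis genes were above 0 in 5 of 6 for WT ethanol (median 0.68) and 6 of 6 for KO saline (median 0.83), with Cit called in both and Kif23 in KO saline. Anln, an anchor of the contractile ring, had log2 fold changes of 1.14 and 0.89 and passed in neither. Licensing and helicase genes lay mostly below 0, in 7 of 9 for WT ethanol (median -0.41) and 8 of 9 for KO saline (median -0.37). Gins2 was the only one called, in KO saline. All 6 cyclin and cyclin-dependent kinase genes lay below 0 in both comparisons (medians -0.34 and -0.45), with Cdk1 called in both. The 8 genes of mitotic kinases, checkpoint and exit had medians of -0.52 and -0.38 and none called. Among them the checkpoint kinases Bub1 and Bub1b lay above 0 (0.43 and 0.19 in WT ethanol, 0.81 and 0.55 in KO saline), and the other 6 below 0. Mitotic genes thus did not share a direction: the log2 fold changes of Ccnb1 and Cdk1 were negative in both comparisons, and those of the spindle genes positive.

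The promoter letters were set beside these values. The 16 genes with CHR letters had a median log2 fold change of 0.01 in WT ethanol and 0.30 in KO saline, with 8 and 9 of them above 0, against medians of -0.41 and -0.15 in the 17 matched genes without them. The 7 genes with E2F letters had medians of -0.62 and -0.37, with 1 and 0 above 0, against -0.10 and 0.04 in the other 26. Top2a, Kif11, Mki67 and Cdk1 share CHR letters, but the first 3 lay above 0 and Cdk1 below 0. These values are a description and no test of the motifs.

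Transcript length moved with these values. The 10 genes whose transcripts were 4 kb or longer (Cenpf, Mki67, Cenpe, Cit, Anln, Top2a, Kif11, Bub1, Tpx2 and Cdc6) summed to 29.5 to 53.7 CPM in WT saline, 76.3 to 128 CPM in WT ethanol, 77.6 to 195 CPM in KO saline and 45.1 to 91.2 CPM in KO ethanol. The WT saline libraries were below every library of WT ethanol and KO saline. This separation depends on the lengths used, which were inferred. By GENCODE length, Cdk1 (4375 bases, against 2854) and Ect2 (4020, against 3986) would join the 10 genes. Bub1 (3421, against 4301) would leave them. Cdk1 was at 52.2 CPM in WT saline replicate 2 and at most 16.7 CPM in WT ethanol and KO saline, so the groups would then overlap. The 8 genes under 2 kb other than Pcna summed to 29.8 to 62.9 CPM in WT saline, 33.0 to 45.0 in WT ethanol, 32.0 to 36.2 in KO saline and 40.3 to 66.9 in KO ethanol, all overlapping with WT saline. By length class, the median log2 fold change of the 40 genes in WT ethanol went from -0.51 under 2 kb to -0.30 at 2 to 4 kb, 0.78 at 4 to 6 kb and 1.61 at 6 kb or longer. Over all symbols the medians in the same classes were -0.57, 0.08, 0.41 and 0.59. In KO saline against WT saline they were -0.60, -0.14, 1.14 and 2.19 for the 40 genes and -0.69, 0.06, 0.46 and 0.65 for all symbols. In KO ethanol against KO saline the order ran the other way, from 0.30 under 2 kb to -1.05 at 6 kb or longer, and from 0.37 to -0.30 for all symbols. Across the 40 genes, Spearman's rho between length and log2 fold change was 0.65, 0.75 and -0.57 in these comparisons, and 0.48, 0.55 and -0.47 across all symbols with a length. These are descriptions across genes that share their libraries. The trend ran in the same direction in all symbols as in the 40 genes, and the parts of length and GC content were not separated, since both trends were removed together.

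**Figure D3:**
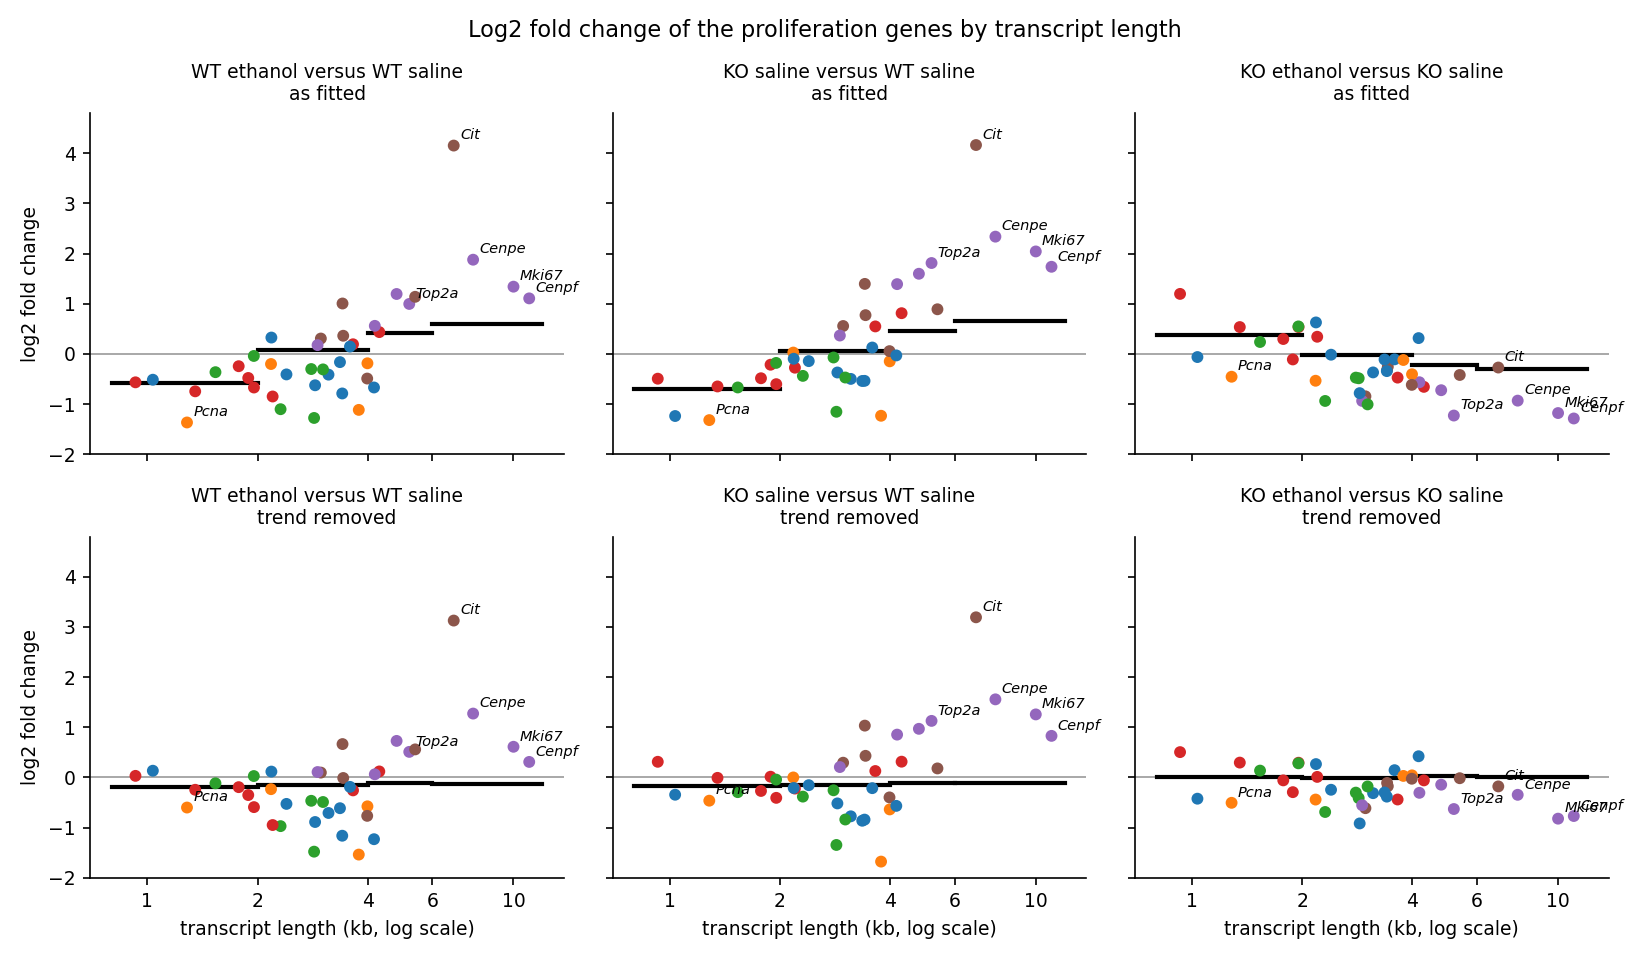
Log2 fold change against transcript length (kb, log axis) of the 40 proliferation genes (points, coloured by role as in the plot of changes by role), as fitted (top row) and with each library's trend with length and GC content removed (bottom row). Black lines are the medians of all symbols in 4 length classes. In the bottom row these medians lie between -0.19 and 0.02, and Cit stays at 3.13 and 3.19.

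With each library's trend with length and GC content removed, the medians of all symbols were flat across length classes (between -0.19 and -0.11 in WT ethanol), and the median over all symbols moved from 0.06 to -0.15 there and from 0.04 to -0.14 in KO saline. At an unadjusted p under 0.05, 6 of the 40 genes then passed in WT ethanol (19.4% of all symbols), 9 in KO saline (17.5%) and 3 in the interaction (8.66%). Cit was then at a log2 fold change of 3.13 (SE 0.50, edgeR adjusted p = 0.0408) in WT ethanol and 3.19 (SE 0.50, edgeR adjusted p = 0.0324) in KO saline. Cenpe was at 1.27 (SE 0.47) and 1.56 (SE 0.47), with edgeR adjusted p-values of 0.183 and 0.172. In KO saline, Mki67 was at 1.26 (SE 0.52), Top2a at 1.13 (SE 0.41) and Kif11 at 0.97 (SE 0.37), each with an unadjusted p under 0.05, and Cenpf at 0.83 (SE 0.47) without. In WT ethanol, Mki67 was at 0.61, Top2a at 0.51, Cenpf at 0.31 and Kif11 at 0.73, and none had an unadjusted p under 0.05. All 7 genes of chromosomes, kinetochores and the spindle remained above 0 in both comparisons, with medians of 0.51 and 0.97. Tpx2 was at 0.85 (SE 0.39) in KO saline, with an unadjusted p under 0.05. Pcna, a short gene, moved to -0.60 and -0.46 and did not pass. In contrast, Cdk1 (-1.48 and -1.35), Tyms (-1.54 and -1.68) and Mcm6 (-0.71 and -0.77) had an unadjusted p under 0.05 in both comparisons. Mcm5 did so in WT ethanol (-1.16, SE 0.43) and not in KO saline (-0.84, SE 0.42). The interaction was then -3.30 for Cit and -1.62 for Cenpe, which like Tyms (1.57) had an unadjusted p under 0.05, and -1.43 for Mki67, -1.14 for Top2a, -1.08 for Cenpf and -0.87 for Kif11, which did not. Top2a in KO ethanol was at -0.63 (SE 0.41) and did not pass.

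**Figure D4:**
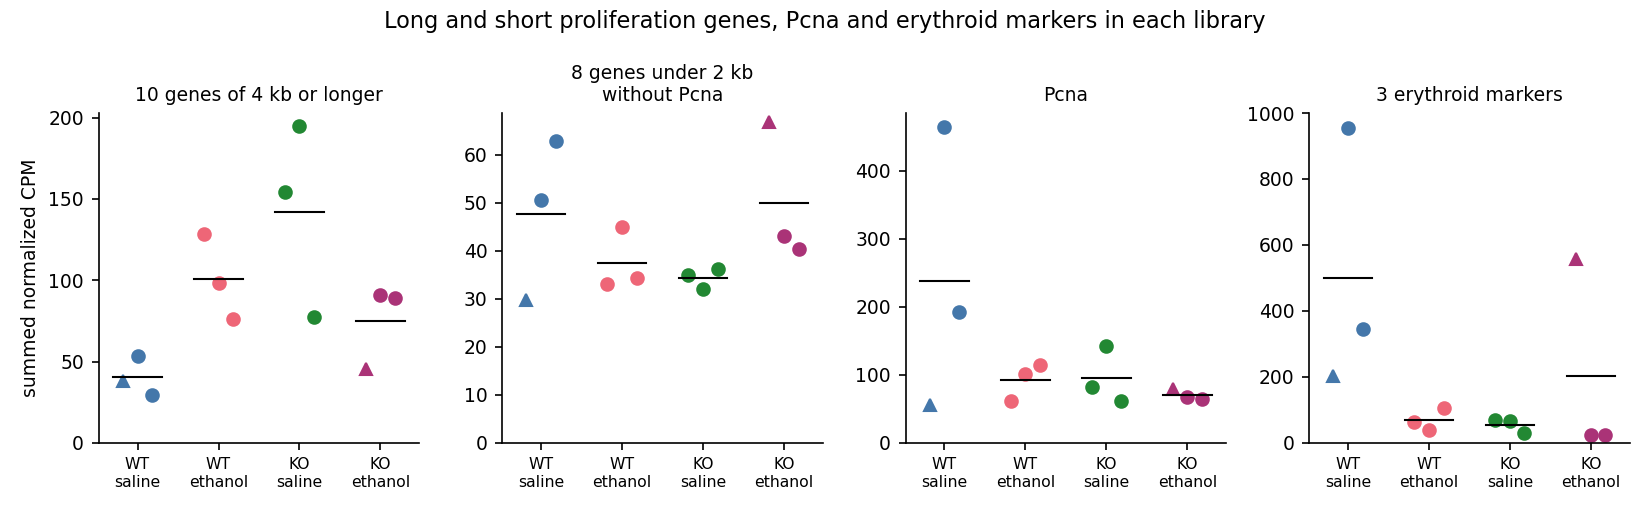
Summed normalized CPM per library of the 10 proliferation genes of 4 kb or longer, of the 8 under 2 kb other than Pcna, of Pcna, and of the 3 erythroid markers. Points are libraries (triangles, named with L) and bars are group means of 3. By the lengths used, the long genes have their lowest group mean in WT saline (libraries 29.5 to 53.7 CPM). Pcna (465 CPM) and the erythroid markers (954 CPM) are both highest in WT saline replicate 2.

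The 2 libraries named with L are the shallowest. Without them, 12 of the 40 genes had an unadjusted p under 0.05 in WT ethanol (4 higher, 8 lower), against 37.3% of all symbols, and 14 in KO saline (7 higher, 7 lower), against 39.2%. At an adjusted p under 0.05 there were then 6 and 9, against 21.5% and 25.3%. The share of the 40 was below that of all symbols in each of these counts. In WT ethanol these were Cit, higher, and Birc5, Ccnb1, Cdk1, Pcna and Tyms, lower. In KO saline they were Cit, Cenpe, Kif11 and Mki67, higher, and Birc5, Cdk1, Gins2, Pcna and Tyms, lower. The lower genes then rest on WT saline replicates 2 and 3, whose erythroid sums were 954 and 346 CPM, against at most 104 CPM in WT ethanol and KO saline. The part of erythroid cells in these values was not tested.

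A wider list of 87 other proliferation genes (34 of S phase and 53 of mitosis), of which 86 were tested, had calls in both directions. In WT ethanol, 6 were higher and 11 lower at an adjusted p under 0.30, with a median of -0.06. In KO saline 11 were higher and 10 lower, with a median of 0.09. In both comparisons the share called was below that of all symbols (22.5% and 25.8%), so the genes named next are examples and not a result about the list. Mitotic genes among the higher were Kif4, a chromosome-bound motor, at 1.70 in WT ethanol and 1.97 in KO saline (SE 0.55 in both), Kif15, a spindle motor, at 2.42 and 2.99 (SE 0.84 and 0.83), and the spindle protein Dlgap5 at 2.52 and 2.95 (SE 0.90 and 0.89). Kif15 had a mean of 0.699 CPM in WT saline and Dlgap5 of 0.295 CPM, so these values rest on few counts. Among the lower were Cks2, a subunit of cyclin-dependent kinases, at -1.62 and -1.47 (SE 0.59 and 0.59), the securin gene Pttg1 at -1.26 and -1.35 (SE 0.52 and 0.52) and the dUTPase gene Dut at -1.28 and -1.30 (SE 0.43 and 0.43). In KO ethanol against KO saline none of the 86 passed at an adjusted p under 0.30.

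The 40 genes are listed as 60 transcripts, of which 56 were tested as such. Cit has 1 listed transcript, so the kinase-bearing form and the shorter form known from neurons could not be told apart. Of the 29 tested transcripts of genes with several, none had an unadjusted p under 0.05 in WT ethanol, 4 did in KO saline, 1 in KO ethanol against KO saline and 2 in KO ethanol against WT ethanol. Among all 21715 transcripts tested, the shares in the same order were 18.2%, 19.1%, 2.99% and 3.29%. In no gene did transcripts with an unadjusted p under 0.05 move in opposite directions. Transcripts of one gene share reads, and the quantification apportioned these, so values per transcript are less certain than the sums.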

How the data were processed

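The authors filtered reads by quality, mapped them to mm10 (TopHat, running Bowtie2), and obtained values per RefSeq transcript with Partek Flow. They deposited estimated counts, unscaled and partly fractional, and RPKM values whose sorted values coincided in the 12 libraries (99.8% of ranks within 0.1%), so these had been quantile normalized. The counts were summed per gene symbol, rounded and tested in edgeR 4.0.16 (R 4.3.3; default low-count filter, TMM factors, quasi-likelihood F test, 1 mean per group over 12 libraries, 5 contrasts, two-sided), with Benjamini-Hochberg adjustment over 14739 symbols. The standard error is the log2 fold change divided by the root of F. Transcript lengths were inferred from each transcript's deposited counts and RPKM, on a scale set by the GENCODE lengths of transcripts with similar RPKM. Of the inferred lengths that had a GENCODE length, 74.4% lay within 10% of it. Where no library had 20 counts, the GENCODE length was used. GC content came from the GENCODE transcripts. Totals were 719735 to 17066392 counts per library, and intervals and floors cover counting error only.

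Groups came from the labels. Replicates are numbered in accession order and pair no libraries. The sources used here do not say which libraries were laser microdissected and which hole-punched, so the first letter of the library name was used as a covariate, its meaning not being given. That each library is a separate mouse is not stated per library, so p-values measure the spread between libraries. The gene list, roles, wider list, markers, motifs and alternatives were written with earlier results of these data known. Genes described in full were Mki67, Top2a, Cdk1, Ccna2, Ccnb1, Plk1, Birc5, Mcm2, Mcm5, Pcna, Rrm2, Ccne1, Cdc6 and Cit, with up to 10 further genes of the smallest p under 0.05 per contrast; Ube2c, Cenpf in KO ethanol, Kif23, Gins2, Anln, Bub1, Bub1b, Mcm6 and the named genes of the wider list were chosen after their values were seen. The alternatives were DESeq2 1.42.0, no TMM factors, at least 1 count in any or at least 10 in every library, limma 3.58.1 applied to the logarithm of RPKM with 1 or 0.1 added, the library letter as covariate, libraries named with P alone, the compared groups alone, removal of each library's length and GC trend by offsets from a spline fit (5 degrees of freedom), and each of the 12 libraries left out. The model was run on simulated counts with the library sizes of these data but no length trend, GC trend or other tissue. The simulation therefore does not test the model against these. Python 3.11.15 with pandas 2.3.3 and matplotlib 3.10.9 made summaries and figures.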

Additional observations from a re-analysis of the deposited data

Results flagged for a closer look

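In 6 genes the response to ethanol differed between WT and p53 KO mice at an unadjusted p under 0.05 in edgeR. The difference of log2 fold changes (KO minus WT) was -4.42 for Cit, -2.81 for Cenpe, -2.52 for Mki67, -2.39 for Cenpf, -2.22 for Top2a and -1.92 for Kif11. None passed at an adjusted p under 0.05 in edgeR, where DESeq2 gave Cit and Cenpe (share of all symbols in DESeq2 not counted). In edgeR, 15.2% of all symbols had an unadjusted p under 0.05 in this test. All 6 transcripts are longer than 4 kb, and all symbols of 6 kb or longer had a median of -0.93 in the same test. With the trend with length and GC content removed, Cit was at -3.30 and Cenpe at -1.62, and both kept an unadjusted p under 0.05. The other 4 then had values of -1.43, -1.14, -1.08 and -0.87 (Mki67, Top2a, Cenpf and Kif11), none of which passed.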

How the results depend on the processing

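No result changed direction while past its threshold under any alternative. The share of all symbols at an unadjusted p under 0.05 also moved with the fit. With P-named libraries alone it was 37.3% in WT ethanol and 39.2% in KO saline, against 18.3% and 19.6% in the main fit. With the trend removed it was 19.4%, 17.5% and, for the interaction, 8.66%. Elsewhere it was not counted, so the counts below are no result about the 40 genes. The number of the 40 genes at an unadjusted p under 0.05 moved by over 1.5 times in these cases. In WT ethanol against WT saline (6), it was 1 with at least 10 counts in every library, 3 and 2 with limma on log2(RPKM + 1) and log2(RPKM + 0.1), 12 with P-named libraries alone and 3 with the compared groups alone, and 2 to 10 with a library left out (2 without WT ethanol replicate 1, 10 without WT saline replicate 1). In KO ethanol against KO saline (1), it was 2 with DESeq2 and with at least 1 count in any library, 0 without TMM factors, with at least 10 counts in every library, with either limma fit, with the letter covariate, with P-named libraries alone and with the trend removed, and 0 to 4 with a library left out (4 without KO saline replicate 3, 2 without WT saline replicate 3, WT ethanol replicate 1 or KO ethanol replicate 2, and 0 without KO saline replicate 1 or 2 or KO ethanol replicate 1). In KO saline against WT saline (9), it was 1 with at least 10 counts in every library, 4 with limma on log2(RPKM + 0.1) and 14 with P-named libraries alone, and 7 to 12 with a library left out. In KO ethanol against WT ethanol (0), it was 1 with DESeq2 and 0 to 1 with a library left out (1 without WT ethanol replicate 1 or KO ethanol replicate 2 or 3). For the interaction (6), it was 0 with at least 10 counts in every library, 2 with each limma fit, 10 with P-named libraries alone and 3 with the trend removed, and 4 to 10 with a library left out (10 without WT saline replicate 1). The filter of 10 counts left 5 of the 40 genes, and the causes of the other moves were not tested. Cit kept an unadjusted p under 0.05 in both comparisons with WT saline in all 9 alternatives in which it was tested and all 12 fits with a library left out. Its adjusted p was under 0.05 in 5 of 9 alternatives in each comparison, and in 5 (WT ethanol) and 4 (KO saline) of 12 fits with a library left out, with log2 fold changes of 3.62 to 4.67 and 3.88 to 4.71. It was not under 0.05 in either comparison without WT saline replicate 2 or 3, any KO saline replicate or KO ethanol replicate 2, nor in WT ethanol without WT ethanol replicate 1, nor in KO saline without WT ethanol replicate 3 or KO ethanol replicate 3. No paired analysis was possible because the replicate numbers are names in accession order. Depth limits KO ethanol replicate 1 most, where the median of the 40 genes was 2.5 counts.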

Other observations

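The ratio of normalized CPM of Cit to Pcna was between 0.0040 and 0.0093 in the 3 WT saline libraries and between 0.0938 and 0.514 in the other 9. Choroid plexus markers summed to 4953 CPM in WT ethanol replicate 1, 2238 CPM in KO saline replicate 1 and 2201 CPM in KO ethanol replicate 3, against at most 406 CPM in the other 9 libraries, and striatal neuron markers to 607 CPM in WT ethanol replicate 2. Of these libraries, WT ethanol replicate 1 had the highest Cit level (31.6 CPM) and the highest summed level of ventricular wall markers (238 CPM). Their part in the values above was not tested.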
